A study of Mus musculus with 21 samples.

Results

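The 65 genomic regions described here are sites bound by the glucocorticoid receptor (GR) in mouse liver whose nearest protein-coding gene encodes a metabolite transporter of the Slc2a, Slc7a, Slc16a, Slc22a, Slc25a or Slc38a family. Overlapping peaks of 18 GR peak lists were merged into 7398 sites, and a site was kept when its centre lay inside, or within 50 kb of, the span of a gene with one of these 6 symbol prefixes and no other protein-coding gene was closer. The nearest gene is a label of position, and no expression was measured in these samples. GR was precipitated with the DNA it bound and that DNA sequenced (ChIP-seq) from snap-frozen whole liver of C57BL/6J mice with the antibody H300. Mice breathed normal air (normoxia) or stayed at 7% oxygen for 6 h or 24 h, and each oxygen condition was combined with dexamethasone (DEX, a synthetic glucocorticoid, 10 mg/kg, intraperitoneal) or with saline vehicle (PBS), given 2 h before sampling. The resulting 6 groups held 3 libraries each, which the design text calls biological replicates, and no genotype other than the strain was named. Age and sex were not given in the labels used here.

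GR is a nuclear receptor that enters the nucleus when it binds a glucocorticoid and attaches to DNA at glucocorticoid response elements, often far from gene starts. In liver it is known for raising the use of amino acids for glucose production during fasting and stress, a program that needs amino acids, carnitine, nucleotides and cofactors to cross the cell membrane and the mitochondrial inner membrane. The Slc25a genes encode mostly mitochondrial carriers, Slc2a the facilitative sugar transporters, and Slc7a and Slc38a mostly amino acid transporters. Slc16a genes encode the monocarboxylate and aromatic amino acid transporters, and Slc22a genes carriers of organic cations, anions and carnitine.

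The promoter sequences shown next are those of 4 member genes that show 2 positions, a site lying on a gene start and a site bound with DEX farther away. RefSeq windows of the GRCm38.p6 assembly (250 bases before to 50 after a gene start) were matched for 29 of the 39 genes with a site, giving 34 windows. Of these, 3 (8.82%) overlapped a GR site, near the 6.61% of all 32851 windows (Slc16a10 by 19 bases, Slc22a15 by 117 and Slc25a3 by 78), and each of these sites was called in normoxia PBS replicate 1 alone. None of the 34 windows overlapped a site called in all 9 DEX libraries, and such an overlap was rare throughout, at 55 of the 32851. The first pair of sequences gives the 250 bases upstream of the start, read on the minus strand, with the bases inside the GR site in capitals (Slc25a3, the mitochondrial phosphate carrier, chr10:91123968-91124217, and Slc22a15, chr3:101924454-101924703).
Slc25a3: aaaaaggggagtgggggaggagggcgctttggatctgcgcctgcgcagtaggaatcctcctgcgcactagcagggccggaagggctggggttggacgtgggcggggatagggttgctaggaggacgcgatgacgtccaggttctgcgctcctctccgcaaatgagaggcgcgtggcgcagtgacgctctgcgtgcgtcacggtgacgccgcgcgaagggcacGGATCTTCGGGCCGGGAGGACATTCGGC
Slc22a15: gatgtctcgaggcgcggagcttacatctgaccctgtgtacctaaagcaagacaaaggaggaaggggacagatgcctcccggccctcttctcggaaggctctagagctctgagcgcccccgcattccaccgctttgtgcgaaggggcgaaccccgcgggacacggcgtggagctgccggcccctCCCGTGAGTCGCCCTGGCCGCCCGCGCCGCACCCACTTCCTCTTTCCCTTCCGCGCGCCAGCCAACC

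The second pair belongs to genes whose nearest site was called in all 9 DEX libraries but lay upstream of the printed stretch, at -2778 bp from the start of Slc25a13 and -2158 bp from that of Slc25a15. Capitals here mark ACGTG or GCGTG on either strand, the core bound by hypoxia-inducible factors (Slc25a13, chr6:6217174-6217423, and Slc25a15, chr8:22398622-22398871, both minus strand, RefSeq GRCm38.p6).
Slc25a13: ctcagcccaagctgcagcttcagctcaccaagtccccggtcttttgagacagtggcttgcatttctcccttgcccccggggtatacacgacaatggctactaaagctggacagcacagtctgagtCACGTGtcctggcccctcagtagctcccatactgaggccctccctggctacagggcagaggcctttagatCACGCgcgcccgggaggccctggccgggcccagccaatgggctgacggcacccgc
Slc25a15: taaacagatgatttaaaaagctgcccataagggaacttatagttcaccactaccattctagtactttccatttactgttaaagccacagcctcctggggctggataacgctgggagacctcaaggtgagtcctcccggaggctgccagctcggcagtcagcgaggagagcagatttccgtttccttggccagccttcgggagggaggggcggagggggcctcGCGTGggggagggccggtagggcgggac
The first run of capitals in Slc25a13 holds a match on each strand. A match to either core occurred in 17 of the 34 member windows (50%), in 8 of the 14 windows of genes with a site in all 9 DEX libraries (57.1%) and in 43.8% of all 32851 windows. A GR motif that reads the same on both strands (GNACA, then 3 free letters, then its mirror image TGTNC) occurred in 1 member window, that of Slc38a11, in none of those 14 and in 0.475% of all windows. These matches describe the letters of the windows only. The sequence under the GR sites away from starts was not analysed here.

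Transporter sites within 500 bp of an annotated start were seen mostly in 1 library. Of the 12 sites that were called in normoxia PBS replicate 1 alone and had a start in the RefSeq table, 5 lay within 500 bp of it. Of the 37 sites called in a DEX library and with a start in the table, 1 did, Slc25a48 site 2 (311 bp downstream). The 12 such sites called in all 9 DEX libraries lay 2158 bp or more from the nearest start, 7 of them upstream. These distances were not counted over all sites, so they are not shown to be particular to transporter genes.

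**Figure D1:**
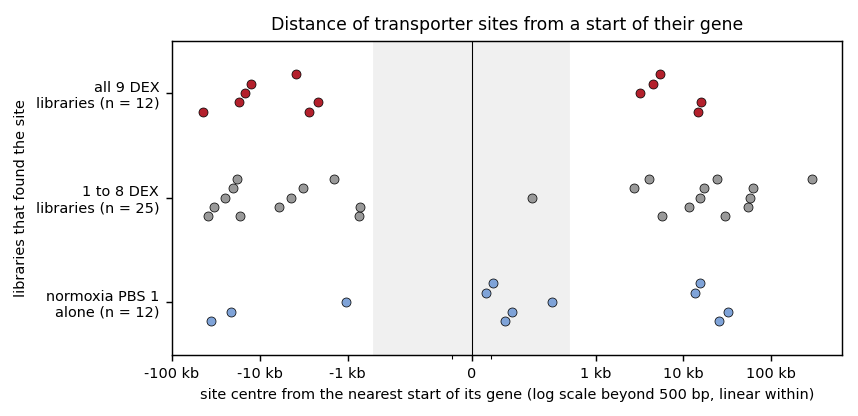
Distance from the centre of each of 49 transporter sites to the nearest RefSeq start of its gene (x axis, negative upstream, linear within 500 bp and logarithmic beyond), in rows by the libraries that found the site. In the grey band of 500 bp around the start lie 5 of the 12 sites of normoxia PBS replicate 1 alone, 1 site of 1 to 8 DEX libraries and none of the 12 sites of all 9 DEX libraries.

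Depth was 5772670 to 13181686 tags in the DEX libraries and 8667179 to 43645787 in the PBS libraries. With DEX the lists held 2803 ± 754 peaks in normoxia, 1717 ± 391 after 6 h and 1631 ± 572 after 24 h (SD, n = 3). With PBS they held 1468 ± 2122, 534 ± 271 and 164 ± 91.5, where the normoxia mean includes 1 list of 3915 peaks. The part of list length in the detections was not tested. A peak needed 50 tags whatever the depth, which is 11.5 normalized tags (tags per 10000000 tags of the library) at the greatest depth and 86.6 at the smallest, that of 6 h hypoxia DEX replicate 2. A site without a peak has no value in the lists and may hold tags below that limit. Normoxia PBS replicate 1 was unlike the other libraries. It had 43645787 tags and 3915 peaks with a peak size of 280 bp, and 3232 sites were called in it alone.

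The transporter sites fell mainly to the Slc25a family. Slc25a genes had 33 of the 65 sites, Slc38a 9, Slc22a 8, Slc2a 6, Slc16a 5 and Slc7a 4. The Slc25a family is also the largest of the 6, with 47 genes in the gene table, of which 17 had a site. A site was found for 6 of 12 Slc2a genes, 6 of 11 Slc38a, 6 of 25 Slc22a, 2 of 14 Slc16a and 2 of 16 Slc7a genes. The Slc7a prefix also takes in Slc7a6os, which is not a transporter gene and had no site. In all, 39 of 125 genes had a site (31.2%), against 22.8% of all 21896 protein-coding genes. The families were chosen with earlier results of these data known, so no enrichment is read from these shares. Among the other 250 genes with an Slc symbol, 68 had a site.

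Slc25a25, the gene of a calcium-regulated carrier that exchanges ATP-Mg for phosphate, had 5 sites, the most of the 39 genes. There were 3 sites each for Slc16a10 (aromatic amino acids), Slc25a33 (pyrimidine nucleotides), Slc25a47 (a carrier found mainly in liver), Slc25a48, Slc25a51 (mitochondrial NAD), Slc38a4 (neutral and cationic amino acids) and Slc7a2 (cationic amino acids). There were 2 each for Slc16a7, Slc22a5 (carnitine), Slc22a23, Slc25a13 (aspartate and glutamate exchange), Slc25a15 (ornithine), Slc25a30, Slc25a32 and Slc38a10. The remaining genes had 1 site each, namely Slc2a2 (the main hepatocyte glucose transporter), Slc2a3, Slc2a5 (fructose), Slc2a6, Slc2a9 (urate), Slc2a13, Slc7a10, Slc22a4, Slc22a14, Slc22a15, Slc22a29, Slc25a3, Slc25a12, Slc25a17, Slc25a26 (S-adenosylmethionine), Slc25a28 (iron), Slc25a39 (glutathione), Slc25a44 (branched-chain amino acids), Slc25a46, Slc38a1, Slc38a2, Slc38a3 (glutamine) and Slc38a11.

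Many of these sites were called in few libraries. Of the 65, 27 were called in 1 library (59.1% of all sites), 16 of them in normoxia PBS replicate 1 (43.7% of all 7398 sites were called in it alone), at 11.5 to 28.6 normalized tags, and 11 in a single DEX library. For 9 genes the deep PBS library gave the only sites (Slc2a3, Slc2a5, Slc22a14, Slc22a15, Slc25a3, Slc25a12, Slc25a28, Slc25a30 and Slc25a46). A DEX library called 49 sites, of 30 genes, and all 9 DEX libraries called 16 sites, of 12 genes (12.6% of all sites). Of the 65 sites, 38 lay inside the gene span (58.5%), 10 outside it within 5 kb and 17 farther away. The share inside was 68.5% for sites of other Slc genes and 72% for all sites within 50 kb of a gene. Exons and introns were not distinguished here. The site nearest to the 50 kb limit on the inside was that of Slc38a2 (43817 bp, all 9 DEX libraries), and the 2 sites beyond the limit were 79818 bp from Slc25a13 (1 DEX library) and 117490 bp from Slc22a23 (all 18 libraries).

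Among the DEX libraries, the longest peak list held the most transporter sites. With DEX, a normoxia library held 35.3 ± 10.2 of them (SD, n = 3, as for each mean that follows), a library of 6 h hypoxia 22.7 ± 4.73 and one of 24 h hypoxia 19 ± 3.46. The PBS libraries held 9.33 ± 14.5, 7.67 ± 5.77 and 0.667 ± 1.15 in the same order. Of the 9 PBS libraries, 3 had no transporter site, the median was 2, and normoxia PBS replicate 1 had 26. As a share of the sites of a library, transporter sites made up 1.01% to 1.41% in the 9 DEX libraries and 0% to 1.77% in the 9 PBS libraries, with 0.664% in normoxia PBS replicate 1, the longest list. A list score over the members was not tested.

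**Figure D2:**
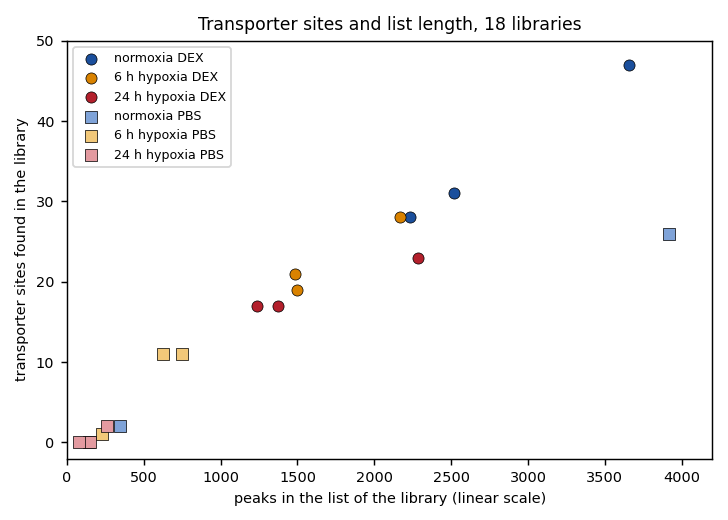
Number of transporter sites (y axis) against the number of peaks in the list (x axis) for the 18 libraries, circles for DEX and squares for PBS, coloured by oxygen condition. The DEX libraries held 17 to 47 transporter sites, and the square at 3915 peaks is normoxia PBS replicate 1 with 26.

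GR peaks were called more often with DEX at sites of 13 transporter genes. Of the 31 transporter sites called in 3 or more of the 18 libraries and therefore tested, 20 gained detections with DEX (64.5%) and 0 lost them (exact two-sided Cochran-Mantel-Haenszel test with the oxygen conditions as strata), with Benjamini-Hochberg adjusted values over 2563 sites. In the same test 55.3% of all sites tested were called more often with DEX and 0.039% less often, so the share among transporter sites was near the background. At an unadjusted p under 0.05 the same test gave 20 gains and 0 losses. The calls fell to 14 of 19 tested Slc25a sites, 3 of 5 Slc38a, 1 of 3 Slc2a, 1 of 2 Slc22a and 1 of 2 Slc7a sites, while no Slc16a site was in enough libraries to be tested. The median difference in the share of libraries, DEX minus PBS, was 0.667 over the 31 transporter sites, 0.556 over 40 sites of other Slc genes (57.5% called) and 0.556 over all sites. With one threshold of 86.6 normalized tags in every library, 10 transporter sites were called, and with every list held to the length of the shortest, 1 transporter site remained and 0 were tested.

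**Figure D3:**
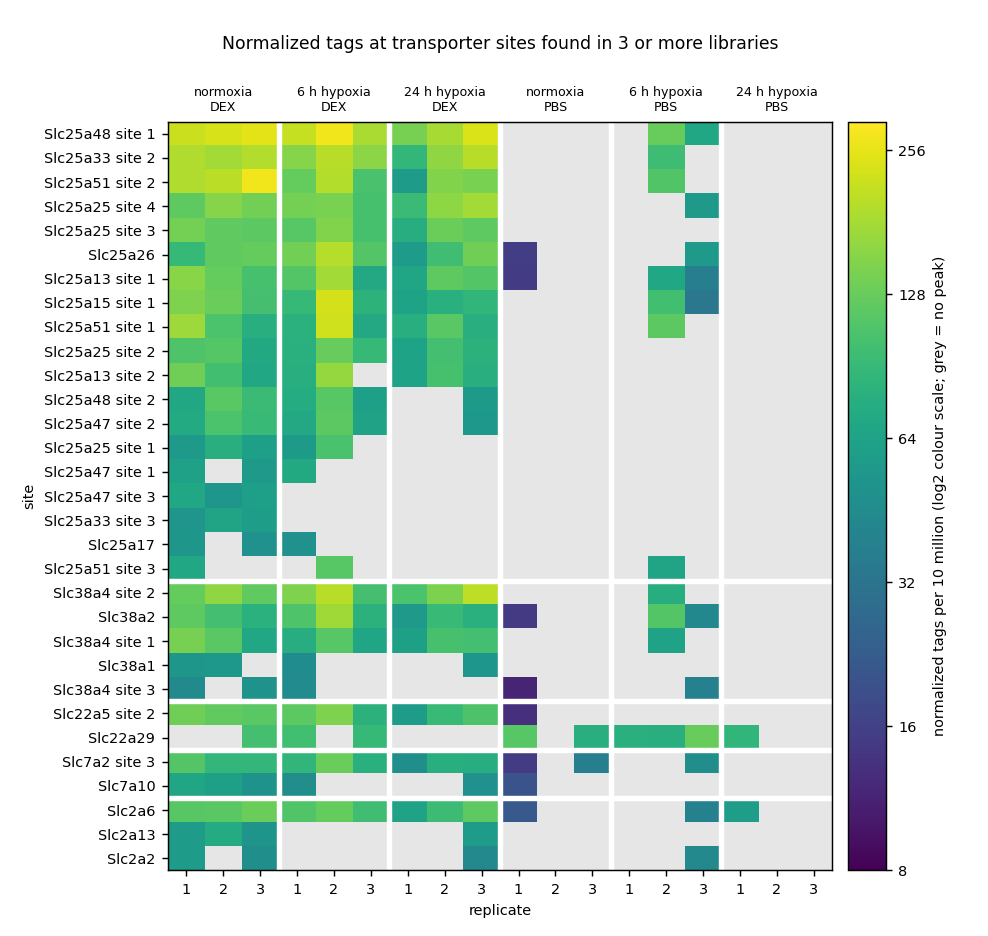
Normalized tags (colour, log2 scale) at the 31 transporter sites called in 3 or more libraries (rows, by family) in the 18 libraries (columns, by group and replicate), grey where the list holds no peak. The upper rows of each family are filled across the 9 DEX columns. The PBS columns are filled mainly in normoxia replicate 1 and in 6 h hypoxia replicates 2 and 3.

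Slc25a25 held a cluster of sites that were called with DEX and almost never with PBS. Its sites 2, 3 and 4 lay inside the gene (chr2:32418493-32418751, chr2:32419399-32419628 and chr2:32420755-32420965, mm10), with centres 891 and 1347 bp apart and 5444 to 3206 bp downstream of the nearest start. Site 3 had 139, 121 and 118 normalized tags in normoxia with DEX, 115, 149 and 103 after 6 h and 76.1, 131 and 121 after 24 h, and no peak in any PBS library. Site 2 had 109, 114 and 71.2 in normoxia, 78.7, 126.5 and 89.4 after 6 h and 64.9, 101 and 81.5 after 24 h, again with no PBS peak. These are the 2 transporter sites in all 9 DEX and 0 of 9 PBS libraries, a pattern shown by 2.83% of all sites, and each had an adjusted p of 0.00307 in the exact test, from a raw p of 0.00025 that is the smallest the design can give.

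Site 4 of Slc25a25 had 121, 152 and 137 normalized tags in normoxia, 139, 142 and 104 after 6 h and 94, 159 and 179 after 24 h with DEX. It had a single PBS peak, 55.8 tags in 6 h hypoxia replicate 3, below every DEX value (adjusted p = 0.00438, exact test). Site 1, 5835 bp outside the gene and 5912 bp from Ptges2, was called in 5 DEX libraries at 56.1, 76.4 and 61.2 tags in normoxia and 56.8 and 103.9 in 6 h hypoxia replicates 1 and 2, with no peak after 24 h (adjusted p = 0.0403, exact test). Site 5 was called in normoxia DEX replicate 1 alone at 66.8 tags.

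Slc25a48, whose product has been linked to choline import into mitochondria, had the highest mean with DEX among the transporter sites. Site 1 (chr13:56434414-56434669, 3419 bp outside the gene span) had 221, 235 and 252 normalized tags in normoxia, 213, 272 and 185.5 after 6 h and 140.2, 184 and 240.5 after 24 h with DEX. With PBS it had 127 and 68.9 tags in 6 h hypoxia replicates 2 and 3 and no other peak, so every DEX value was above every PBS value (9 of 9 against 2 of 9 libraries, adjusted p = 0.00859, exact test). Its mean of 216 ± 40.5 (SD, n = 9) ranked 232nd of the 935 sites called in all 9 DEX libraries. Site 2, 311 bp downstream of the start, was called in 7 DEX and 0 PBS libraries at 57 to 116.4 tags and was missing in 24 h hypoxia replicates 1 and 2 (adjusted p = 0.00859, exact test).

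Slc25a33 had its main site 17354 bp outside the gene (site 2, chr4:149791512-149791730). It had 193, 178.5 and 194 normalized tags in normoxia, 153, 199 and 158 after 6 h and 87.2, 163 and 201 after 24 h with DEX. The PBS peak in 6 h hypoxia replicate 2 had 95.8 tags, which lay within the DEX range through 24 h hypoxia replicate 1 (adjusted p = 0.00438, exact test). Sites 1 and 3 flanked it at 517 and 2544 bp, with 2 and 3 DEX libraries, all of normoxia, and no PBS library.

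Slc25a51 had a pair of sites called in all 9 DEX libraries, 768 bp apart and 2674 and 3442 bp outside the gene. Site 1 (chr4:45411482-45411700) had 174.5, 106 and 77.4 normalized tags in normoxia, 79.5, 225 and 70.4 after 6 h and 76.9, 117.5 and 76.7 after 24 h with DEX, and 119 in the only PBS library with a peak, 6 h hypoxia replicate 2. Site 2 (chr4:45412251-45412467) had 193, 202 and 272 in normoxia, 126, 194 and 105 after 6 h and 59, 148 and 142 after 24 h, and 110.4 in the same PBS library. At both sites the PBS value lay inside the DEX range. At site 1 it was above the mean of 112 over all 9 DEX libraries and below the 6 h DEX mean of 125. Peaks in all 9 DEX libraries stood against 1 PBS library at each (adjusted p = 0.00438, exact test). Site 3 was called in 2 DEX libraries and in that same PBS library.

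Slc25a13 encodes citrin, the liver aspartate and glutamate exchanger that feeds the urea cycle and the malate-aspartate shuttle. Site 1 (chr6:6219794-6220109, 2647 bp outside the gene) had 155.5, 125 and 104 normalized tags in normoxia, 112, 178 and 70.4 after 6 h and 67.5, 121 and 112 after 24 h with DEX. With PBS it had 15.1 in normoxia replicate 1 and 68.7 and 37.2 in 6 h hypoxia replicates 2 and 3 (adjusted p = 0.0216, exact test). Site 2, 22325 bp farther out, was called in 8 DEX libraries at 64.9 to 166 tags, missing only in 6 h hypoxia replicate 3, and in no PBS library (adjusted p = 0.00438, exact test).

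Slc25a15 encodes the ornithine carrier of the urea cycle. Site 1 (chr8:22400653-22400905) had 146, 129 and 102 normalized tags in normoxia, 89.1, 234 and 81.8 after 6 h and 64.9, 79.1 and 86.2 after 24 h with DEX, against 99.1 and 33.5 in 6 h hypoxia PBS replicates 2 and 3 (adjusted p = 0.00859, exact test). The value of 234 in 6 h hypoxia replicate 2 was the only one above 146. Site 2, 1081 bp away, was called in normoxia DEX replicates 1 and 2 alone.

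Slc25a26 encodes the carrier of S-adenosylmethionine, the methyl donor of mitochondria. Its site (chr6:94601322-94601602) lay inside the gene and 3067 bp from Lrig1. It had 89.5, 121 and 126 normalized tags in normoxia, 136, 197.5 and 112 after 6 h and 59, 97.2 and 134 after 24 h with DEX, against 15.4 in normoxia PBS replicate 1 and 55.8 in 6 h hypoxia PBS replicate 3 (adjusted p = 0.0112, exact test). Every DEX value was above both PBS values. For 15.4 this was fixed in advance, since no DEX library could give a peak below 37.9 tags.

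Slc25a47 had no site in all 9 DEX libraries. Its site 2, inside the gene and 726 bp upstream of the nearest RefSeq start, had 72.8, 106 and 90.6 normalized tags in normoxia, 70.8, 118 and 63.8 after 6 h and 54.6 in 24 h hypoxia replicate 3 with DEX, and no PBS peak (adjusted p = 0.00859, exact test). Sites 1 and 3 were called in 3 DEX libraries each. The other Slc25a sites did not pass or were called in too few libraries to be tested.

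Among the amino acid transporters of the cell membrane, Slc38a4 had a pair of sites inside the gene, 1263 bp apart (chr15:97004399-97004762 and chr15:97005735-97005951). Site 1 had 140.3, 116 and 69.7 normalized tags in normoxia, 76, 116 and 66.6 after 6 h and 62.4, 103 and 99.7 after 24 h with DEX, and 64.2 in 6 h hypoxia PBS replicate 2. Site 2 had 126, 161 and 121.5 in normoxia, 146, 199 and 101 after 6 h and 106, 145 and 205 after 24 h, and 75.5 in the same PBS library, which was below every DEX value. Both passed (9 of 9 against 1 of 9 libraries, adjusted p = 0.00438, exact test). Site 3, 44440 bp from site 2, was called in 3 DEX and 2 PBS libraries and did not pass.

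Slc38a2, a sodium-coupled neutral amino acid transporter, had 1 site at the far end of the distance range (chr15:96743334-96743757). It had 119.9, 100.2 and 80.5 normalized tags in normoxia, 108, 177 and 80.9 after 6 h and 55.5, 91.5 and 79.1 after 24 h with DEX. With PBS it had 14.7 in normoxia replicate 1 and 111.5 and 42.8 in 6 h hypoxia replicates 2 and 3, so the groups overlapped (adjusted p = 0.0216, exact test). When peaks had to overlap by 100 bp to be merged, this site no longer passed (adjusted p = 0.0681).

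Slc7a2, which encodes the cationic amino acid transporter CAT2, had site 3 inside the gene (chr8:40892049-40892329). It had 111.5, 86.9 and 86.7 normalized tags in normoxia, 85.7, 129.9 and 79 after 6 h and 47.9, 76.8 and 75.9 after 24 h with DEX. PBS peaks were called in normoxia replicate 1 (15.1), normoxia replicate 3 (37.6) and 6 h hypoxia replicate 3 (47.8), all below the lowest DEX value of 47.9 (adjusted p = 0.0216, exact test). For 15.1 and 37.6 this order was fixed in advance, since no DEX library could give a peak below 37.9 tags. Its mean of 86.7 ± 23.1 (SD, n = 9) was the lowest of the 16 sites. Sites 1 and 2 were called in normoxia DEX replicate 1 alone, and Slc7a10 had 1 site in 5 DEX and 1 PBS libraries that did not pass (adjusted p = 0.131, exact test).

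For carnitine, the Slc22a5 gene, which encodes the carnitine importer OCTN2, had site 2 at 12458 bp outside its span (chr11:53904105-53904404). It had 135, 122 and 117 normalized tags in normoxia, 118, 145.5 and 80.9 after 6 h and 58.1, 90.4 and 108 after 24 h with DEX, and 13.1 in normoxia PBS replicate 1, the only PBS peak (adjusted p = 0.00438, exact test). Every DEX value was above it, but that library had the widest peaks and the lowest limit of a peak (11.5 normalized tags) of the 18. No DEX library could give a peak below 37.9 tags, so this order was fixed in advance.

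For sugars, the site of Slc2a6, which encodes the lysosomal transporter GLUT6, was called in all 9 DEX libraries (chr2:27042521-27042801, 14661 bp outside the gene). It had 115, 116 and 130 normalized tags in normoxia, 111, 125 and 97.1 after 6 h and 64.1, 94.9 and 121 after 24 h with DEX. With PBS it had 22 in normoxia replicate 1, 39.1 in 6 h hypoxia replicate 3 and 59.6 in 24 h hypoxia replicate 1, all below the DEX values (adjusted p = 0.0337, exact test). For 22 this order was fixed in advance by the limit of a peak, 37.9 tags or more in the DEX libraries. The site of Slc2a2 had 57.7 and 48 tags in normoxia DEX replicates 1 and 3, 43.5 in 24 h hypoxia DEX replicate 3 and 43.4 in 6 h hypoxia PBS replicate 3, and did not pass (adjusted p = 0.646). For Slc16a, the site in most libraries was Slc16a10 site 1, with 63 and 49.8 tags in replicate 1 of normoxia and of 6 h hypoxia with DEX.

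Among the 31 tested transporter sites, Slc22a29 had more PBS than DEX detections. Its site inside the gene (chr19:8252115-8252395) had 115.7 and 76.4 normalized tags in normoxia PBS replicates 1 and 3, 78.6, 76.6 and 127 after 6 h and 85.4 in 24 h hypoxia PBS replicate 1. With DEX it had 101.4 in normoxia replicate 3 and 98.8 and 89.4 in 6 h hypoxia replicates 1 and 3. The tag counts overlapped, and 6 of 9 PBS against 3 of 9 DEX libraries did not differ beyond the threshold (adjusted p = 0.335, exact test). Input was high at this site, at 14.8 to 23.8 tags for the DEX peaks. At the 16 sites called in all 9 DEX libraries it was 6.8 at most. The peaks of Slc22a29 were 4.26 to 8.47 times input, near the 4-fold limit of a peak, against 19.3 or more with DEX at those 16 sites.

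Tags with DEX and PBS were set side by side at sites called in all 9 DEX libraries and in 1 or more PBS libraries. That filter runs through the DEX libraries, so the following counts describe these sites and are no test of DEX. Of the 16 transporter sites in all 9 DEX libraries, 14 had a peak in 1 or more PBS libraries, and at 7 of them the lowest DEX value was above the highest PBS value, against 39.3% of the 726 such sites in all. The DEX mean was higher at 13 of the 14 (98.3% of the 726), and the median factor over the 14 was 2.06, against 2.32 over the 726. The exception was Slc25a51 site 1 (0.934), whose only PBS peak came from 6 h hypoxia replicate 2. Within 6 h hypoxia its DEX mean was 125 against that PBS value of 119 (factor 1.05). Apart from that 1.05, the factors pool the oxygen conditions, and they leave out PBS libraries below the limit of a peak. At Slc22a5 site 2 the order was fixed by the lower limit of normoxia PBS replicate 1, its only PBS library with a peak. That library also gave a PBS value at Slc25a13 site 1 (15.1), Slc25a26 (15.4), Slc2a6 (22), Slc38a2 (14.7) and Slc7a2 site 3 (15.1). These values lie below 37.9 tags, the lowest limit of a peak in a DEX library, and lower the PBS means behind these factors. No transporter site was called in all 18 libraries (0.838% of all sites), so the tag test of DEX against PBS, which uses the 62 such sites, held no member. With PBS, 17 transporter sites were called in 1 or more of the 3 libraries of 6 h hypoxia and 2 in those of 24 h hypoxia, where the counts over all sites were 896 and 269.

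Occupancy in hypoxia was compared within the 9 DEX libraries. All 49 transporter sites with a DEX peak were called in normoxia, 29 of them also in a library of 6 h and 23 in one of 24 h hypoxia, and 18 (36.7%) had no peak in any hypoxia library, against 33.5% of all sites with a DEX peak. Over all sites, 3949 of 4129 with a DEX peak had one in normoxia, 2325 in 6 h hypoxia and 2333 in 24 h hypoxia. The hypoxia lists were shorter, with 1717 ± 391 (SD, n = 3) and 1631 ± 572 peaks against 2803 ± 754 in normoxia, and the part of list length in the losses was not tested.

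No transporter site passed the test of detection in hypoxia, but no site could have passed it here. Sites at the smallest p this design can give had an adjusted p of 0.343 (Fisher's exact test). No conclusion about unchanged detection is drawn from it. Of 37 transporter sites in 2 or more DEX libraries, 0 passed Fisher's exact test (6 hypoxia against 3 normoxia libraries, two-sided, adjusted over 2938 sites), and 0% of all sites passed. At an unadjusted p under 0.05, 3 were called less often in hypoxia (8.75% of all sites) and 0 more often (0.102% of all). The 3 were Slc25a33 site 3 and Slc25a47 site 3, each in 3 of 3 normoxia and 0 of 6 hypoxia libraries (exact p = 0.0119, the smallest this design can give), and Slc2a13 (3 of 3 and 1 of 6, exact p = 0.0476). Slc25a33 site 3 had 52.3, 65.9 and 59.6 normalized tags in normoxia, and Slc25a47 site 3 had 69.8, 53.5 and 61.2, where the limits of a peak were 37.9, 47.7 and 38.7. Slc2a13, a myo-inositol transporter gene, had 57.7, 73.5 and 51.9 in normoxia and 57.7 in 24 h hypoxia replicate 3. The share of libraries was lower in hypoxia at 20 of the 37 (54.1%; 59.5% of all sites), equal at 17 and higher at 0 (4.77% of all).

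**Figure D4:**
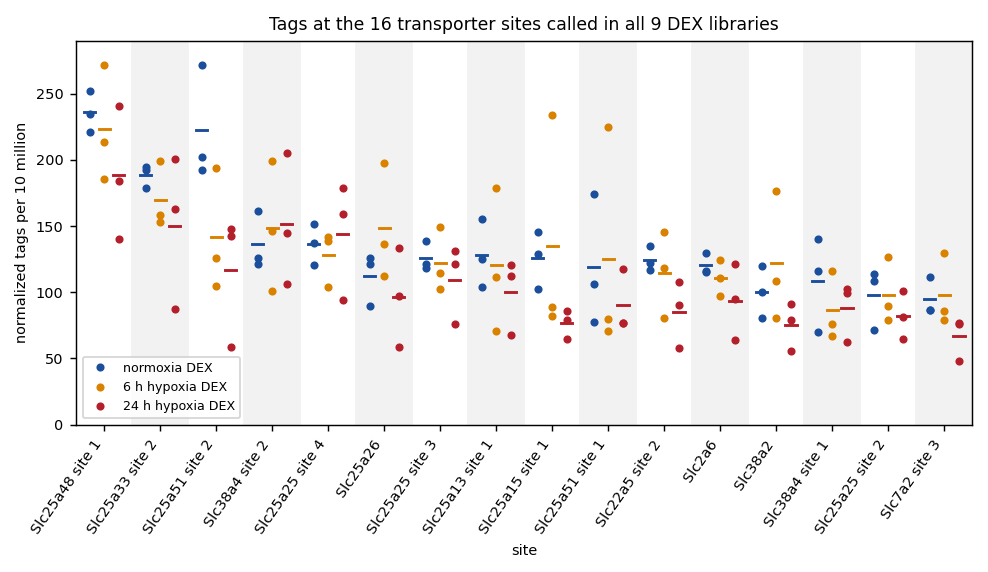
Normalized tags per library (points) and group means (bars) at the 16 transporter sites called in all 9 DEX libraries, in order of their mean. Slc25a51 site 2 has all 3 normoxia points at 193 or more and the 24 h points at 59 to 148.

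At the 16 sites called in all 9 DEX libraries, tags could be compared without missing values. Their means with DEX ran from 86.7 to 216 with a median of 114, and 12 of the 16 were below the median of 140 over the 935 such sites. The sites of other Slc genes called in all 9 DEX libraries had a median of 161. The coefficient of variation over the 9 libraries was 17.7% to 48.3% (median 26.1%, 25.4% over all 935). Libraries differed as a whole. 6 h hypoxia replicate 2, the shallowest, gave the highest value at 10 of the 16 (72.8% of all), and 24 h hypoxia replicate 1, which had the smallest share of tags in peaks of the DEX libraries (1.38%), gave the lowest at 14 of the 16 (73.2% of all). Each library was therefore centred on its median log2 tag count over the 935 sites before testing.

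Slc25a51 site 2 was the only transporter site called lower in hypoxia, and several alternatives lost this call. Its log2 tags fell by 0.70 ± 0.17 (SE) in hypoxia against normoxia (limma, 6 h and 24 h together, 3 normoxia and 6 hypoxia libraries, adjusted p = 0.0266), with group means of 222 ± 43.1 (SD, n = 3) in normoxia, 142 ± 46.7 at 6 h and 116 ± 49.8 at 24 h. The other 15 gave 0 higher and 0 lower calls. The background over 935 sites was 3.1% higher and 2.14% lower. At an unadjusted p under 0.05, 0 transporter sites were higher (10.6% of all) and this one was lower (7.38% of all). After centring, all 6 hypoxia values of this site were below all 3 normoxia values (3.21% of all sites), and at 0 transporter sites were they all above (5.03%). Uncentred, 0 transporter sites had all hypoxia values below (1.71%) or above (0.535%) the normoxia values, and here 194 in 6 h hypoxia replicate 2 was above 193 in normoxia replicate 1. The call was lost without centring (adjusted p = 0.172), with the share of tags in peaks as a covariate (0.189), in edgeR with library totals (0.221), and when any of 5 single libraries was left out (normoxia DEX replicate 2 or 3, 6 h replicate 1 or 3, or 24 h replicate 1, adjusted p 0.0513 to 0.0944). It was kept in edgeR with TMM factors (0.0152), a fit chosen after seeing the data. The estimate stayed between -0.85 and -0.50 in these settings. At the common threshold of 86.6 normalized tags the site was not tested.

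The neighbouring Slc25a51 site 1 changed by -0.05 ± 0.24 (SE, limma, adjusted p = 0.932). The ratio of site 2 to site 1 was 1.1, 1.91 and 3.51 in the 3 normoxia libraries, 1.58, 0.861 and 1.49 after 6 h and 0.767, 1.26 and 1.86 after 24 h. The ranges overlapped, and the difference between the sites was not tested.

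Outside Slc25a51 site 2 the estimates were small. The other 15 sites lay between -0.23 (Slc25a15 site 1, SE 0.18) and 0.25 (Slc38a4 site 2, SE 0.14), with standard errors of 0.13 to 0.24. The median over the 16 was -0.09 and over all 935 sites 0.05. Of the 16 estimates, 11 were below 0 (40% of all 935). These errors leave room for changes of that size in either direction at most sites.

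**Figure D5:**
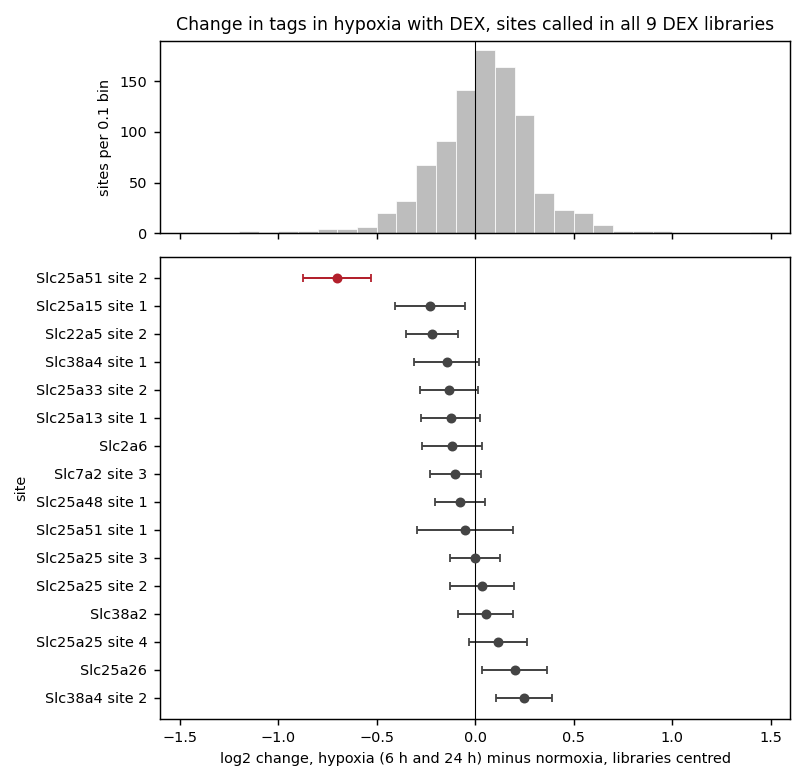
Upper panel, histogram of the log2 change in tags in hypoxia against normoxia with DEX over the 935 sites called in all 9 DEX libraries. Lower panel, the change (point) and its standard error (bar) at the 16 transporter sites, with Slc25a51 site 2 in red at -0.70 and the other 15 between -0.23 and 0.25.

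At Slc25a51 site 2 the call was made at 24 h and not at 6 h, but the estimates at these times were not told apart. Its change from 6 h to 24 h was -0.07 ± 0.20 (SE, adjusted p = 0.891, limma). After 24 h, 1 transporter site was lower (Slc25a51 site 2, -0.74 ± 0.20, SE, adjusted p = 0.0439, limma) and 0 were higher, against 3.21% and 2.99% of all sites. This call too was lost without centring (adjusted p = 0.0877), with the share of tags in peaks as a covariate (0.241), in edgeR with library totals (0.171) and at the common threshold, where the site was not tested. It held without normoxia DEX replicate 1 (0.0258) or 6 h replicate 2 (0.0458) and was lost without any one of the other 7 DEX libraries (0.0571 to 0.183). After 6 h, 0 were called in either direction (0.856% lower and 1.82% higher over all sites), and Slc25a51 site 2 alone had an unadjusted p under 0.05 (-0.67 ± 0.20, adjusted p = 0.106), where 5.67% of all sites were lower and 9.95% higher. Slc38a4 site 2 had an estimate of 0.40 ± 0.17 after 24 h with an adjusted p of 0.175 (limma). It and Slc25a51 site 2 were the transporter sites with an unadjusted p under 0.05 at 24 h, at which 12.9% of all sites were higher and 8.77% lower. Between 24 h and 6 h, 0 of the 16 differed (1.39% lower and 0.428% higher over all), and 2 had an unadjusted p under 0.05, Slc38a2 (-0.37 ± 0.16) and Slc25a25 site 4 (0.40 ± 0.17), each with an adjusted p of 0.257 (limma), where 8.88% of all were lower and 7.81% higher.

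GR sites also lay near genes that work with these transporters. For the following lists, 22.8% of all genes had a site and 55.3% of all tested sites were called more often with DEX. The lists were chosen with earlier results of these data known, so no enrichment is read from their counts. Of 12 partner and regulator genes, 7 had a site, and 4 of their 7 tested sites gained detections with DEX while 0 lost them. Bsg, the chaperone of the monocarboxylate transporters, had a site in 9 of 9 DEX and 0 of 9 PBS libraries at 82.6 ± 18.7 normalized tags (SD, n = 9, adjusted p = 0.00307, exact test). Mpc1, a subunit of the mitochondrial pyruvate carrier, had one in 6 DEX and 0 PBS libraries (adjusted p = 0.0216, exact test). Mpc2 had one in 0 DEX and 1 PBS libraries. Txnip, which lowers glucose uptake, and Sesn2, a leucine sensor, each had one in 7 and 0 (adjusted p = 0.00859). The site of Slc3a1, a partner subunit of Slc7a transporters, was called in 9 DEX and 6 PBS libraries at 168 ± 44.2 tags with DEX and did not pass (adjusted p = 0.281).

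Among enzymes that use the transported metabolites, 6 of 8 genes for glucose and lactate had a site (4 of 11 tested sites more often with DEX), 9 of 12 for amino acids (8 of 14) and 2 of 4 for carnitine (1 of 2), with 0 sites less often in each list. For glucose and lactate and for carnitine the share called was below the background. Pck1, the gene of the gluconeogenic enzyme PEPCK, had its most often called site in 9 DEX and 6 PBS libraries (adjusted p = 0.23, exact test), and that of Arg1, the arginase of the urea cycle, was in 3 and 3 (adjusted p = 1), so neither passed. Tat, the tyrosine aminotransferase gene, had 4 sites detected more often with DEX. Gpt2, an alanine aminotransferase gene, had a site in 9 DEX and 1 PBS libraries (108 ± 40.1 tags, SD, n = 9, adjusted p = 0.00438, exact test), and Pfkfb3 had one in 9 and 1 (124 ± 31.6, adjusted p = 0.00438). Cpt1a, the gene of carnitine palmitoyltransferase of liver mitochondria, had one in 9 and 2 (149.5 ± 33.6, adjusted p = 0.00859). Of 8 genes of the amino acid response, 4 had a site, with 3 of 5 tested sites more often and 0 less often with DEX. Among these, Ddit4 had a site in 9 DEX and 1 PBS libraries (113 ± 16.2, adjusted p = 0.00438, exact test). The site of Chac1 had more tags (180 ± 36.4) but was called in 9 DEX and 5 PBS libraries and did not pass (adjusted p = 0.0764, exact test).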

How the data were processed

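GR ChIP-seq peak lists of 18 mouse liver libraries, in 6 groups of 3 taken from the sample titles, were analysed, and the 3 inputs entered only through values of the peak caller. Trimmomatic, BWA 0.7.17, SAMtools 1.10, HOMER and the build mm10 are named in the submitters' processing notes. Peaks were called in each library alone with HOMER, per the file headers, at 4-fold over input and local surroundings, with a Poisson p of 1e-04 and at least 50 tags. The deposited signal is the authors' normalized tag count per 10000000 tags, and input tags are a deposited signal scaled to the library. Tag counts per peak, deposited in 16 lists as whole numbers, served the edgeR alternatives. The deposited score ranked peaks within a list for the equal-length alternative, and the fold over input, a ratio the authors deposited, was a filter. Normoxia PBS replicate 1 was called with a peak size of 280 bp and a cap of 2 tags per base, per the file headers, against 1 in the others.

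Peaks overlapping by 1 bp were merged, and each site took the highest peak of a library and the nearest of 21896 protein-coding genes of GRCm38.p6. Detection was tested with the exact Cochran-Mantel-Haenszel test (sites in 3 or more of 18 libraries) and Fisher's exact test (sites in 2 or more of 9), and tags with limma 3.58.1 (trend, log2 of tags plus 1, centred), all adjusted by Benjamini-Hochberg over the whole table at 0.05. Python 3.11.15 and R 4.3.3 were used, with edgeR 4.0.16 as an alternative. Scripts were tested on simulated data. Every member gene is named. Values in every library are given for sites called in all 9 DEX libraries or in a test (by range where fewer libraries called them) and for the leading site of each family. The partner, enzyme, amino acid response and cell type marker lists and the members were chosen with earlier results of these data known. Sequence under the sites was not used here, so the planned search for GR motifs in sites was replaced by a description of promoter windows.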

Additional observations from a re-analysis of the deposited data

How the results depend on the processing

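The 65 sites became 23 at a common threshold of 86.6 tags and 1 at equal list length, and the 16 sites in all 9 DEX libraries became 4 and 0. The 20 sites more often detected with DEX became 10 and 0 there, and 15 with the replicate block, which lost Slc25a13 site 1, Slc25a25 site 1, Slc2a6, Slc38a2 and Slc7a2 site 3. With no filter on libraries 15 remained called. The other alternatives gave 15 to 21, and leaving out single libraries 20 to 21. Leaving out single libraries moved the 65 sites to between 49 and 65, with 49 without normoxia PBS replicate 1, and the 16 to between 16 and 17. The 1 site with lower tags in hypoxia became 0 with no centring, with the share of tags in peaks as a covariate, in edgeR on tags with library totals and at the common threshold (4 sites left), and 0 to 1 without single libraries. It was called with the replicate block (adjusted p = 0.00602, limma), which also called it at 6 h (adjusted p = 0.0312), where it had not passed. Without centring, the median over all 935 sites moved from 0.05 to -0.10. Of the 16 tag estimates, 8 changed sign in 1 or more alternatives, none of them past the threshold. The edgeR fit with TMM factors was chosen after seeing the data. Same-numbered DEX libraries correlated at 0.00581 to 0.505 after group means were removed, above 0.1 in 7 of 9 pairs, and 6 of 9 libraries correlated best with their own number. Since not every pair was above 0.1 and no label ties the numbers to a shared day or litter, the block stands as an alternative only. In detection, the limit of 50 tags hides occupancy below 37.9 to 86.6 normalized tags in the DEX libraries.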

Other observations

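GR sites near cell type markers were counted as a description of a tissue of mixed cells, since binding near a marker does not measure its expression and the labelled tissue could not be checked by expression here. Over all genes 22.8% had a site, and 55.3% of all tested sites were called more often with DEX. The marker lists were chosen with earlier results of these data known, so no enrichment is read from their counts. Of 8 hepatocyte markers, 6 had a site, and 3 of their 4 tested sites were detected more often with DEX. The sites of Apoa1, Apob and Serpina1a were each called in 1 DEX library alone. The most often called site of Alb lay 35996 bp from the gene. All 4 endothelial markers had a site (Pecam1 in 1 DEX library alone), with 3 of 4 tested sites more often detected with DEX. Of 6 markers of Kupffer cells and leukocytes 1 had a site (Ptprc, 1 DEX library), and of 4 markers of stellate cells and cholangiocytes 1 (Sox9, 2 DEX libraries), and neither was tested. No marker site was detected less often with DEX in the exact Cochran-Mantel-Haenszel test.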
